A study of Mus musculus with 8 samples.

Results

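Integrins are the cell surface receptors, each built of an α and a β subunit, by which cells hold on to matrix and to each other, and laminins are the trimeric proteins, each built of an α, a β and a γ chain, from which basement membranes are assembled. The genes of both families were taken from mouse expression arrays by probe name: the integrin subunits named Itga or Itgb with a number or with the letter of Itgal, Itgam, Itgav, Itgax, Itgae and Itgad, and the laminin chains named Lama, Lamb or Lamc with a number. The rule found 50 of 55681 non-control probes, for 36 genes, 25 integrin subunits and 11 laminin chains. Of these genes, 32 passed the filter on dim probes and were tested, among 26508 genes tested in all: 21 integrin subunits and all 11 laminin chains. Itga2, Itgad, Itgae and Itgb6 were not well above background on both arrays of any group and were not tested.

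Total RNA from 4 groups of 2 samples each was labelled with Cy3 and hybridised to 8 one-colour arrays. Colony cells were bone marrow cells plated for 7 days on an endothelial monolayer in HSC media. The macrophages were bone marrow cells grown for 7 days on dishes with M-CSF, the growth factor of this lineage, and then kept for 24 hours with IL4 (IL-4 macrophages), with LPS (LPS macrophages) or in control media (control macrophages). Every group, the controls included, came from transgenic mice (1Nagy/J) on the B6 background that carry the red fluorescent protein DsRed*MST driven by the broadly active CAG promoter. Nothing in the labels ties the pair of samples of a group to different mice or culture dishes, so p-values measure only the spread between these samples, which may be technical. They also give neither the origin of the endothelial cells nor whether these were removed before RNA was extracted, and colony cells differ from macrophages in both substrate and medium at once. In RNA from a whole culture, fewer cells of a type and less RNA per cell cannot be told apart.

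Leukocytes are known for the integrins that share the β subunit Itgb2, which bind cell surface ligands such as ICAMs and complement fragments, and for α4 integrins, which bind VCAM-1 and fibronectin. Integrins that pair Itgb1 with Itga3, Itga6 or Itga7, or Itgb4 with Itga6, are laminin receptors. They are best known from epithelia, muscle and other cells that rest on a basement membrane. Laminin chains are made mainly by such cells and are assembled into trimers within them.

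Levels are log2 signals relative to the 75th percentile of the same array, so that 0 is that percentile. Levels of different probes are not comparable, and comparisons are made within a gene. Changes are log2 differences between group means from 1 limma model over all 8 arrays, with the standard error after ±, 2 arrays per group, and p-values adjusted by Benjamini-Hochberg over all 26508 genes. A gene was called at an adjusted p under 0.05. Where the probe was not well above background on either array of 1 group, the change is given only as a lower bound, the brighter group's mean set against the lowest signal that would still count as well above background, or the dim probe's own signal where that was higher.

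The arrays had 62.4% to 67.5% of spots well above background, except LPS replicate 2 with 72.2%. All 14 macrophage markers listed were well above background on both arrays of every group. Their summed signal, in multiples of the 75th percentile of the array, was 208 and 210 in colony cells, 1984 and 2049 in IL-4 macrophages, 1878 and 2119 in LPS macrophages, and 2557 and 2580 in control macrophages. In colony cells against control macrophages 14 of 14 macrophage markers and 19 of 20 leukocyte markers fell. All 12 mesothelial markers and 11 of 12 fibroblast and stromal markers rose in the same comparison. Of all genes tested, 24.7% rose and 46.7% fell there. Of 15 endothelial markers 11 were tested, of which 4 rose and 6 fell, and their levels differed widely: Cdh5, the endothelial cadherin, was not well above background in colony cells, whereas Esam, an endothelial adhesion molecule, was at least 451-fold higher there. These 2 were named after their values were seen.

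Against control macrophages, colony cells had higher levels of 17 and lower levels of 12 of the 32 genes tested, while 71.4% of all genes tested were called, 24.7% higher and 46.7% lower. The median change of the 32 genes was 0.71, beside -0.36 for all genes tested. By role, 8 of 11 laminin chains, 3 of 4 laminin-binding and 3 of 3 tested collagen-binding integrin subunits were higher. In the other groups, 3 of 4 tested subunits of the β2 leukocyte integrins and 4 of 6 tested RGD-binding subunits were lower. RGD is the short peptide motif of fibronectin and related proteins that the latter subunits recognise. Of the 4 tested genes of the α4, α9 and αE group, 1 was higher and 3 were lower. With so few genes per group, these lower counts cannot be told from the 46.7% lower among all genes.

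**Figure D1:**
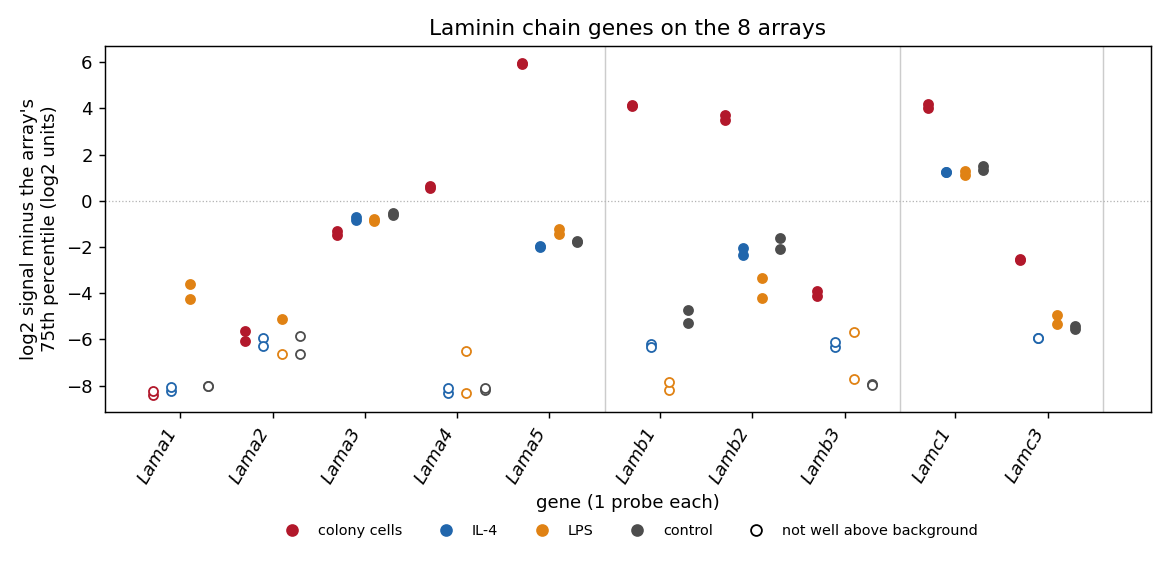
Level of each laminin chain gene on each array, as log2 signal minus the 75th percentile of the array, with colony cells, IL-4, LPS and control macrophages from left to right within a gene. Filled points are well above background and open points are not. The colony cell arrays lie highest for Lama4, Lama5, Lamb1, Lamb2, Lamb3, Lamc1 and Lamc3, and the LPS arrays for Lama1.

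Lama5 encodes the α chain of the laminins with the widest spread in mature basement membranes. Its levels were 5.92 and 5.99 in colony cells, -1.95 and -2.02 in IL-4 macrophages, -1.43 and -1.24 in LPS macrophages, and -1.80 and -1.73 in control macrophages. The colony arrays stood far above all 6 macrophage arrays, and the change against control was 7.72 ± 0.09, or 211-fold, with an adjusted p of 4.5e-07. Lama4, an α chain known from vessels, fat and muscle, was well above background only in colony cells, at 0.66 and 0.53, which was at least 97.7-fold above control macrophages. The 60-base probes of Lama4 and Lamb2 are printed as examples. Each of these chains rests on a single probe, as do Lama1, Lama5, Lamb1, Lamb3, Lamc1 and Lamc3. The Lama4 probe lies at chr10:38825794-38825853 and the Lamb2 probe at chr9:108392189-108392248, both on the plus strand of build mm9, per the array files. Exons and untranslated regions are not given for that build here.
Lama4: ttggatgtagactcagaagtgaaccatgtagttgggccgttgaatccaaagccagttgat
Lamb2: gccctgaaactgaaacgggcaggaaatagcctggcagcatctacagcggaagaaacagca

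The 3 β chains were all higher in colony cells. Lamb1, the β chain of the common laminins, was at 4.14 and 4.12 in colony cells, -6.18 and -6.34 in IL-4 macrophages, -8.18 and -7.85 in LPS macrophages, and -4.74 and -5.30 in control macrophages. Among macrophages only the controls were well above background for Lamb1, and colony cells exceeded them by 9.14 ± 0.21, or 566-fold, with an adjusted p of 1.2e-06. Lamb2, a β chain of synapse, kidney and vessel laminins, was at 3.73 and 3.50 in colony cells, -2.02 and -2.34 in IL-4 macrophages, -4.19 and -3.33 in LPS macrophages, and -2.07 and -1.61 in control macrophages. Its change in colony cells against control was 5.45 ± 0.32, or 43.8-fold. Lamb3, a β chain of skin and other epithelia, was dim in all macrophages and at -3.91 and -4.11 in colony cells, at least 4.01-fold above control.

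Lamc1, the γ chain of most laminins, had a signal well above background in every group, as did Lama3, Lama5 and Lamb2. Its levels were 4.20 and 4.03 in colony cells, 1.23 and 1.23 in IL-4 macrophages, 1.13 and 1.28 in LPS macrophages, and 1.34 and 1.50 in control macrophages. Colony cells stood 2.69 ± 0.10 above control, and the macrophage groups did not separate from each other by the test. Lamc3 rose by 2.93 ± 0.14 in colony cells, at -2.56 and -2.54, against -5.53 and -5.44 in control macrophages.

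The remaining α chains did not follow. Lama3, the α chain of epithelial laminin, fell by 0.81 ± 0.09 in colony cells, at -1.31 and -1.48, against -0.53 and -0.63 in control macrophages, and its other kept probe fell by 0.42 ± 0.12. Lama2, the muscle and nerve α chain, was at -6.05 and -5.64 in colony cells and not well above background in control macrophages, and was not called, with an adjusted p of 0.55. Lama1, the α chain of the early embryo, was dim in colony cells and in control macrophages alike, so that no fold can be given.

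With the normexp background correction, whose added offset of 50 compresses dim signals, several of these changes in colony cells against control were smaller. Lamb1 came to 6.91, Lama4 to 3.83 and Lamc3 to 0.83 there, and the integrin subunits Itga7 to 5.10 and Itga3 to 4.28, all still called. Lamb3 at 0.19 and Itgb8 at 0.072 were no longer called.

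**Figure D2:**
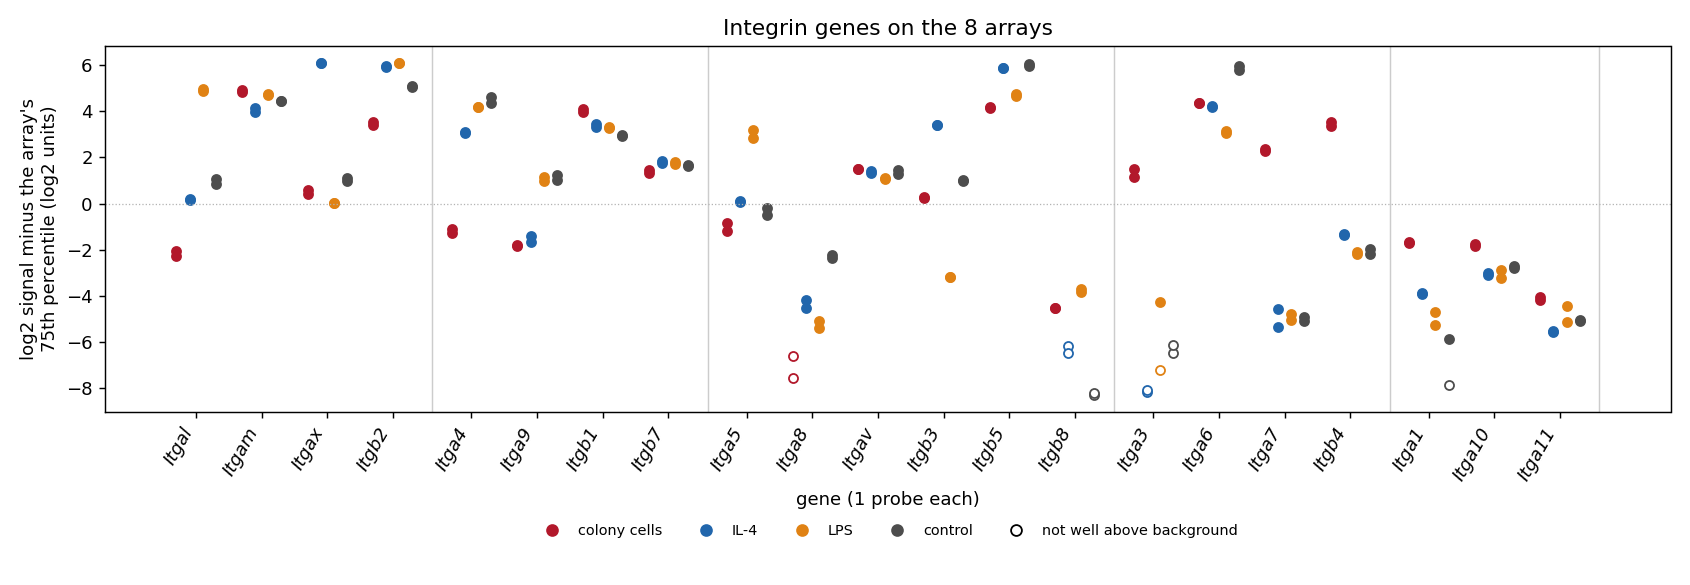
Level of each tested integrin gene on each array, as log2 signal minus the 75th percentile of the array, with colony cells, IL-4, LPS and control macrophages from left to right within a gene. Filled points are well above background and open points are not. Only the probe used for each gene is drawn. On it, Itga3, Itga7 and Itgb4 are highest on the colony arrays, Itgax and Itgb3 on the IL-4 arrays, and Itgal and Itga5 on the LPS arrays. The other Itgb3 probe, not drawn here, was highest on the LPS arrays.

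Among the laminin-binding subunits, Itga3, Itga7 and Itgb4 were higher in colony cells. Itga7, the laminin receptor subunit of muscle, was at 2.35 and 2.28 in colony cells, -4.56 and -5.34 in IL-4 macrophages, -4.80 and -5.04 in LPS macrophages, and -4.90 and -5.09 in control macrophages. The macrophage arrays overlapped one another and lay far below the colony arrays, which exceeded control by 7.31 ± 0.26, or 158-fold. Itgb4, the hemidesmosome subunit of epithelia, was at 3.37 and 3.53 in colony cells, -1.30 and -1.36 in IL-4 macrophages, -2.20 and -2.08 in LPS macrophages, and -1.97 and -2.21 in control macrophages, a change of 5.53 ± 0.11 in colony cells against control. Itga3, a laminin receptor subunit of epithelia and kidney, was at 1.48 and 1.13 in colony cells, at least 160-fold above control macrophages. In the macrophages its probe was well above background only on LPS replicate 2.

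Itga6, the partner of Itgb4, gave opposite answers by probe. The brighter probe was at 4.33 and 4.37 in colony cells and at 5.80 and 5.97 in control macrophages, a change of -1.53 ± 0.08. The other probe was at 3.81 and 3.75 in colony cells and at 2.91 and 2.65 in control macrophages, a change of 1.00 ± 0.13. Both changes were called. The brighter probe was designed on a RefSeq transcript at chr2:71694756-71694815 and the other on an Ensembl transcript at chr2:71690633-71690692, both on the plus strand of mm9, per the array files.

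The collagen-binding subunits that were tested, Itga1, Itga10 and Itga11, were all higher in colony cells than in control macrophages. Itga1 was at -1.72 and -1.69 in colony cells, -3.91 and -3.90 in IL-4 macrophages, -5.28 and -4.70 in LPS macrophages, and -7.85 and -5.85 in control macrophages. Control replicate 1 was not well above background, and the controls lay 2 log2 units apart, which gave the change of 5.15 ± 0.63 in colony cells its wide error. The other Itga1 probe changed by 1.69 ± 0.45. Itga10, an integrin subunit of cartilage, changed by 0.96 ± 0.13 and Itga11, one of fibroblasts, by 0.96 ± 0.23. The Itga11 call was lost without control replicate 1 or without colony replicate 2, and with the normexp correction its change was -0.080. Quantile normalization and median centring ended the call as well.

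Itgb1, the β subunit shared by the largest number of integrins, rose by 1.10 ± 0.08 in colony cells, at 4.11 and 3.96, against 2.91 and 2.97 in control macrophages. Itgb8, a β subunit that binds latent TGF-β together with Itgav, was at -4.52 and -4.54 in colony cells and dim in control macrophages, a rise of at least 2.79-fold. Itgav itself, the α subunit of the vitronectin receptors, changed by 0.12 ± 0.08 and was not called, whereas its other probe rose by 0.64 ± 0.08.

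Of the 4 tested β2 leukocyte integrin subunits, Itgal, Itgax and Itgb2 were lower in colony cells and Itgam, on the probe used for the gene, was higher, alongside a fall of the leukocyte markers, whose summed signal was 292 and 294 in colony cells and 1685 and 1660 in control macrophages. The part of cell composition in these changes was not tested. Itga4, the α subunit of the VCAM-1 receptor, had the largest measured fall of the 32 genes. It was at -1.28 and -1.12 in colony cells, 3.12 and 3.06 in IL-4 macrophages, 4.17 and 4.17 in LPS macrophages, and 4.35 and 4.60 in control macrophages, a change of -5.67 ± 0.11, or 50.8-fold lower than in control. Its other probe gave -6.03 ± 0.36. Itgal, the α subunit of LFA-1, was at -2.04 and -2.30 in colony cells and at 0.85 and 1.04 in control macrophages, and fell by 3.12 ± 0.12. All 3 Itgal probes fell, with changes between -4.67 and -1.22.

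Itgb2, the shared β subunit of the leukocyte integrins, fell by 1.60 ± 0.07 in colony cells, at 3.53 and 3.41, against 5.04 and 5.11 in control macrophages. Itgax, which encodes CD11c, the αX subunit, fell by 0.52 ± 0.09. Itga9, which pairs with Itgb1 and binds tenascin and VCAM-1, fell by 2.93 ± 0.13. Itgb7, the partner of Itga4 in gut homing, changed by -0.27 ± 0.08, a call that was lost without control replicate 2 or colony replicate 2 and with normexp, quantile normalization or the deposited values.

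Of the RGD-binding subunits, Itga8, a fibronectin and nephronectin receptor subunit, was dim in colony cells, at -7.57 and -6.63, against -2.34 and -2.25 in control macrophages, at least 16.3-fold lower. Itgb5 fell by 1.82 ± 0.07 and Itgb3 by 0.73 ± 0.06. Itga5, the α subunit of the fibronectin receptor, changed by -0.70 ± 0.18, a call that was lost without control replicate 2 or without colony replicate 2.

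Itgam, which encodes CD11b, the αM subunit and a standard marker of myeloid cells, was represented by 3 probes that went different ways. The brightest probe was at 4.85 and 4.93 in colony cells, 4.12 and 3.95 in IL-4 macrophages, 4.71 and 4.75 in LPS macrophages, and 4.42 and 4.44 in control macrophages, which gave a rise of 0.46 ± 0.08 in colony cells against control. The others fell in that comparison, by 0.47 ± 0.12 and 0.61 ± 0.11. The probes are printed because their sequences differ in kind: the brightest begins with a run of CA repeats, 20 bases long and in capitals, of which the first 30 bases are shown. Probe A_55_P1977934 lies at chr7:135261755-135261814, A_55_P1977929 at chr7:135260275-135260334 and A_55_P1977926 at chr7:135212140-135212199, all on the plus strand of mm9.
A_55_P1977934: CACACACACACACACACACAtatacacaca
A_55_P1977929: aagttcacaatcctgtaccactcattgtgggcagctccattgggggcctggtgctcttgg
A_55_P1977926: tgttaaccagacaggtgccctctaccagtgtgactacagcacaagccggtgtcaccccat

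Of the non-control probes that hold a dinucleotide repeat of at least 18 bases, 104 (97.2%) were well above background on all 8 arrays, against 55.3% of all non-control probes. Their median level was 4.28 and 4.38 in colony cells, 6.24 and 6.52 in IL-4 macrophages, 8.04 and 8.46 in LPS macrophages, and 5.92 and 5.89 in control macrophages. Without such probes, a setting chosen after seeing the data, Itgam changed by -0.47 in colony cells against control, and no other integrin or laminin probe held such a repeat. Whether the signal of the repeat probe comes from Itgam RNA was not tested.

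**Figure D3:**
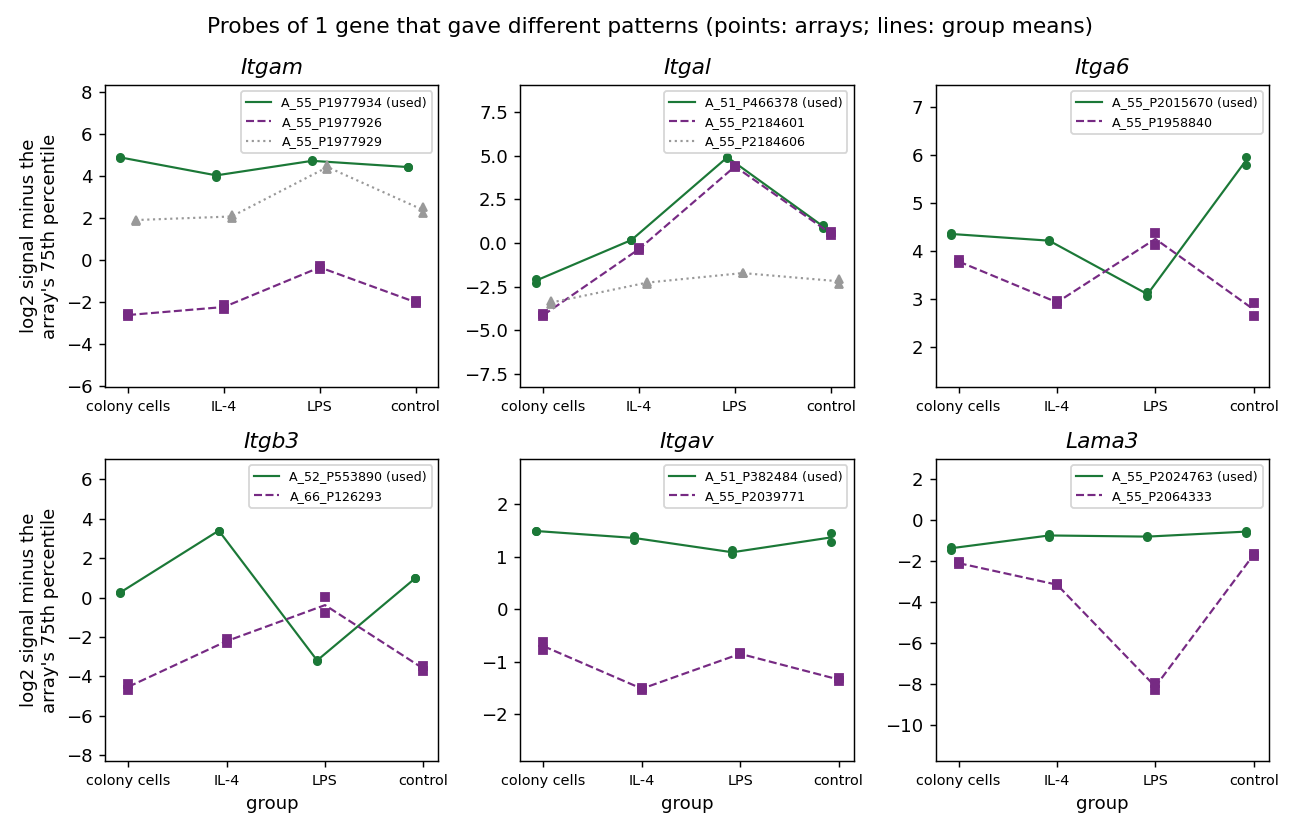
Level of every array (points) and group means (lines, drawn only to join the groups) for each probe of 6 genes, in log2 units relative to the 75th percentile of the array. The probe used for the gene is marked. For Itgam, Itga6, Itgb3, Itgav and Lama3 the probes were called in opposite directions in at least 1 comparison, while the 3 Itgal probes fell together in colony cells.

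Of 10 genes with several probes past the filter, 5 had probes called in opposite directions in at least 1 of the 6 comparisons. These were Itgam, Itga6, Itgb3, Itgav and Lama3. In colony cells against control this held for Itgam and Itga6. In IL-4 against control macrophages it held for none of the 10 genes.

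The genes that act with these families were counted from lists. In colony cells against control macrophages, 24.7% of all genes tested rose and 46.7% fell. Of 22 tested basement membrane partners of laminins, 15 rose and 3 fell in colony cells against control macrophages. They included the type IV collagen chains Col4a1, at least 1244-fold higher, and Col4a2, higher by 9.20 ± 0.39, with Sparc, a collagen-binding matrix protein, at 8.79 ± 0.14 and Fbln2, a laminin-binding fibulin, at 11.28 ± 0.26. Of 19 other laminin receptors 11 rose and 4 fell, among them the syndecan Sdc2 with 8.47, the sarcoglycan Sgce with 8.02 and the Lutheran antigen Bcam with 6.92.

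Of 27 tested ligands and counter-receptors of integrins, 15 rose and 10 fell in colony cells against control. For this list and the next ones, the shares among all genes tested were 24.7% higher and 46.7% lower. Fn1, which encodes fibronectin, was at 7.36 and 7.39 in colony cells and -3.03 and -2.57 in control macrophages, and Vcam1, a ligand of Itga4 integrins, was at 6.27 and 6.16 in colony cells and -3.93 and -3.73 in control macrophages. Thus the ligand Vcam1 was higher by 10.04 in the comparison in which its receptor subunit Itga4 was lower. Of 34 activators and adaptors 16 rose and 15 fell, led by the kindlin Fermt2, at least 299-fold higher, and by the adaptors Bcar1 with 7.61, Parva with 6.87 and Tns2 with 5.76. Of 17 integrin-linked kinases 2 rose and 12 fell. The focal adhesion kinase Ptk2 rose by 3.83, whereas Syk and Lyn, kinases of leukocyte integrin signalling, changed by -3.69 and -3.28.

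**Figure D4:**
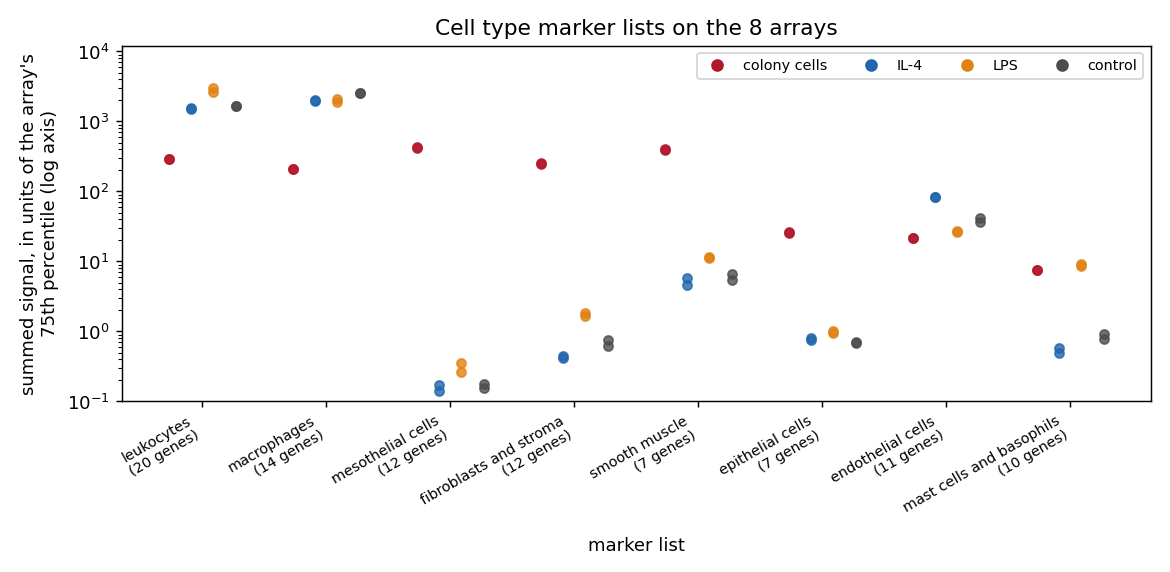
Summed signal of cell type marker lists on each array, in multiples of the 75th percentile of the array on a log axis, with colony cells, IL-4, LPS and control macrophages from left to right. Mesothelial markers summed to 436 and 423 in colony cells and to at most 0.350 on any macrophage array, while leukocyte and macrophage markers were lower in colony cells.

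The laminin chains and laminin receptors that were higher in colony cells moved with markers of several other cell types. Mesothelial markers summed to 436 and 423 in colony cells and 0.176 and 0.156 in control macrophages, with 12 of 12 markers higher. Fibroblast and stromal markers summed to 252 and 247 in colony cells and 0.628 and 0.753 in control macrophages, and smooth muscle markers to 405 and 385 in colony cells and 6.68 and 5.37 in control macrophages. Epithelial markers, with 4 of 7 higher, summed to 25.6 and 26.0 in colony cells and 0.694 and 0.704 in control macrophages. Of 10 tested mast cell and basophil markers 9 rose and 0 fell, with sums of 7.51 and 7.50 in colony cells and 0.931 and 0.770 in control macrophages. Of 12 neutrophil markers 5 rose and 1 fell, with sums of 48.5 and 49.8 in colony cells and 58.4 and 48.7 in control macrophages. Endothelial markers summed to 21.4 and 21.6 in colony cells and 36.2 and 41.2 in control macrophages. Beside these marker counts, 24.7% of all genes tested rose and 46.7% fell. The part of these cells in the integrin and laminin levels was not tested.

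The Lama5 promoter is printed because this gene had the smallest adjusted p among the 32 genes in that comparison, and 4 matches to GGGCGG are in capitals. It runs from 250 bases before to 50 after the start, at chr2:180225810-180226109 on the minus strand of GRCm38.p6, from RefSeq, and is written 5′ to 3′ along the gene.
Lama5: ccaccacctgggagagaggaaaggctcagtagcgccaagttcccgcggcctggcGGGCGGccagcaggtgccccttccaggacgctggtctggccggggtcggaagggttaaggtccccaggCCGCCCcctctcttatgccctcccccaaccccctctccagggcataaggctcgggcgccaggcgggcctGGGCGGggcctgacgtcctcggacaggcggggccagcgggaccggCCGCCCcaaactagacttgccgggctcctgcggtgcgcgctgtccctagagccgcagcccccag

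Promoters were at hand for 22 of the 36 genes, 25 promoters in all, and 10 motifs were searched on both strands. The STAT pattern, TTC and GAA with 4 bases between, was in 2 of the 25, and the κB pattern, GGG and CC with 5 bases between, was in 15, against 50.8% of all promoters. The PU.1 core GAGGAA was in 13, against 28.3% of all, and the ETS core GGAAGT in 8, against 23.8%. The longer PU.1 motif AGAGGAAGT, which overlaps both of these, was in 2, against 1% of all. The TEAD motif GGAATG was in 3, against 14.7%, and the AP-1 motif TGANTCA in 3, against 7.81%. The KLF motif CACCC was in 16, against 57.5%. GGGCGG was in 12 of the 25 promoters and in 35.7% of all 32851. TATAAA was in 0 of the 25 and in 13.6% of all. The Lama5 promoter held 24 CG dinucleotides and that of Lamb1 18, against 4 in Lamb2 and 1 in Lama2. Integrin promoters varied as well, with 27 in Itgb1, 24 in Itgav, 6 in Itgam and 5 in Itgax. The median over all promoters was 7. A match is a description of the letters only.

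Against control macrophages, IL-4 macrophages had higher levels of 7 and lower levels of 7 of the 32 genes, while 19.0% of all genes tested were called, 9.87% higher and 9.18% lower. The median change of the 32 genes was -0.16, beside -0.01 for all genes. The calls fell almost wholly among integrins: 13 of 21 integrin subunits were called, and of 11 laminin chains, on the probe used for each gene, only Lamb1.

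Itgax had the largest rise. Its levels were 6.10 and 6.11 in IL-4 macrophages and 0.97 and 1.08 in control macrophages, beside 0.59 and 0.42 in colony cells and 0.03 and 0.04 in LPS macrophages. The IL-4 arrays stood clear of the other 6, and the change against control was 5.08 ± 0.09, or 33.8-fold, with an adjusted p of 1.21e-05. The Itgax promoter held 1 match to the STAT pattern, TTC and GAA with 4 bases between, which 6.95% of all promoters hold. Among the 25 promoters the pattern was also in one of the Itga3 promoters. It is in capitals in the promoter below, chr7:128129300-128129599 on the plus strand of GRCm38.p6, from RefSeq.
Itgax: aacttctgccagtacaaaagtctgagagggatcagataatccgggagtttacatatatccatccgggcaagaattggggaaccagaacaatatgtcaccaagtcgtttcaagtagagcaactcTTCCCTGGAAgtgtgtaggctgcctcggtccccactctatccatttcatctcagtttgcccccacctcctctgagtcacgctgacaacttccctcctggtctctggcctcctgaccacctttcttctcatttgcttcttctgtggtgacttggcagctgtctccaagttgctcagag

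Itgb3, the β subunit of the vitronectin receptor of osteoclasts and platelets, was at 3.40 and 3.40 in IL-4 macrophages and 1.00 and 0.99 in control macrophages, a rise of 2.41 ± 0.06, and its other probe rose by 1.39 ± 0.28. Itgb2 rose by 0.86 ± 0.07, Itgb4 by 0.76 ± 0.11 and Itgb1 by 0.45 ± 0.08. Itga1 rose by 2.95 ± 0.63 on its brighter probe, while the other probe changed by 0.35 ± 0.45 and was not called. Itgb8 was called higher but was dim in both groups, so that no fold can be given.

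The integrins that fell with IL-4 were Itga9 by 2.65 ± 0.13, Itga8 by 2.06 ± 0.32, Itga6 by 1.67 ± 0.08, Itga4 by 1.38 ± 0.11, Itgal by 0.78 ± 0.12 and Itgam by 0.40 ± 0.08. Itga9 was at -1.65 and -1.41 in IL-4 macrophages and 1.00 and 1.22 in control macrophages. Itga8 was at -4.53 and -4.19 in IL-4 macrophages and -2.34 and -2.25 in control macrophages. Both genes were separated between the groups by far more than their replicates differed. The fall of Itga6 was seen on its brighter probe, and the other changed by 0.15 ± 0.13. That of Itgam was called only on its brightest probe, the one with the CA repeats. Its other probes changed by -0.30 ± 0.12 and -0.23 ± 0.11 and were not called. The Itgam call was lost under 12 alternatives and kept under 7. Another Itgal probe fell by 0.88 ± 0.10, while a dimmer one changed by -0.08 ± 0.13 and was not called. Lamb1 fell at least 2.09-fold. The other 10 laminin chains were not called on the probe used for the gene, and those with a measured level in both groups changed by -0.47 to -0.19 there. The other Lama3 probe, well above background in both groups, fell by 1.46 ± 0.12 and was called, with an adjusted p of 0.0018 over all kept probes.

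Without IL-4 replicate 1 the calls numbered 7 and without IL-4 replicate 2 they numbered 8, in place of 14. The calls of Itga1, Itgal, Itgam, Itgb1, Itgb4 and Lamb1 were lost without either array, and that of Itga8 without IL-4 replicate 1 or control replicate 2. Those of Itgax, Itgb3, Itgb2, Itga9, Itga6, Itga4 and Itgb8 were kept without either.

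Among the genes that act with integrins, Fn1 was at 2.56 and 2.53 in IL-4 macrophages and -3.03 and -2.57 in control macrophages, a rise of 5.35 in this integrin ligand. Of 27 ligands and counter-receptors 4 rose and 5 fell, with Cdh1, a ligand of Itgae integrins, at least 2.73-fold higher and the thrombospondin Thbs1 lower by 2.05. Of 17 integrin-linked kinases 5 rose and 5 fell, among them Fyn, higher by 2.01. Of 22 basement membrane partners 0 rose and 8 fell, among them Nid2, a laminin-binding nidogen, at least 2.97-fold lower. Of all genes tested, 9.87% rose and 9.18% fell in this comparison. Leukocyte markers, of which 1 rose and 5 fell, summed to 1505 and 1552 in IL-4 macrophages and 1685 and 1660 in control macrophages. Of 14 macrophage markers 1 rose and 8 fell, with sums of 1984 and 2049 in IL-4 macrophages and 2557 and 2580 in control macrophages.

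**Figure D5:**
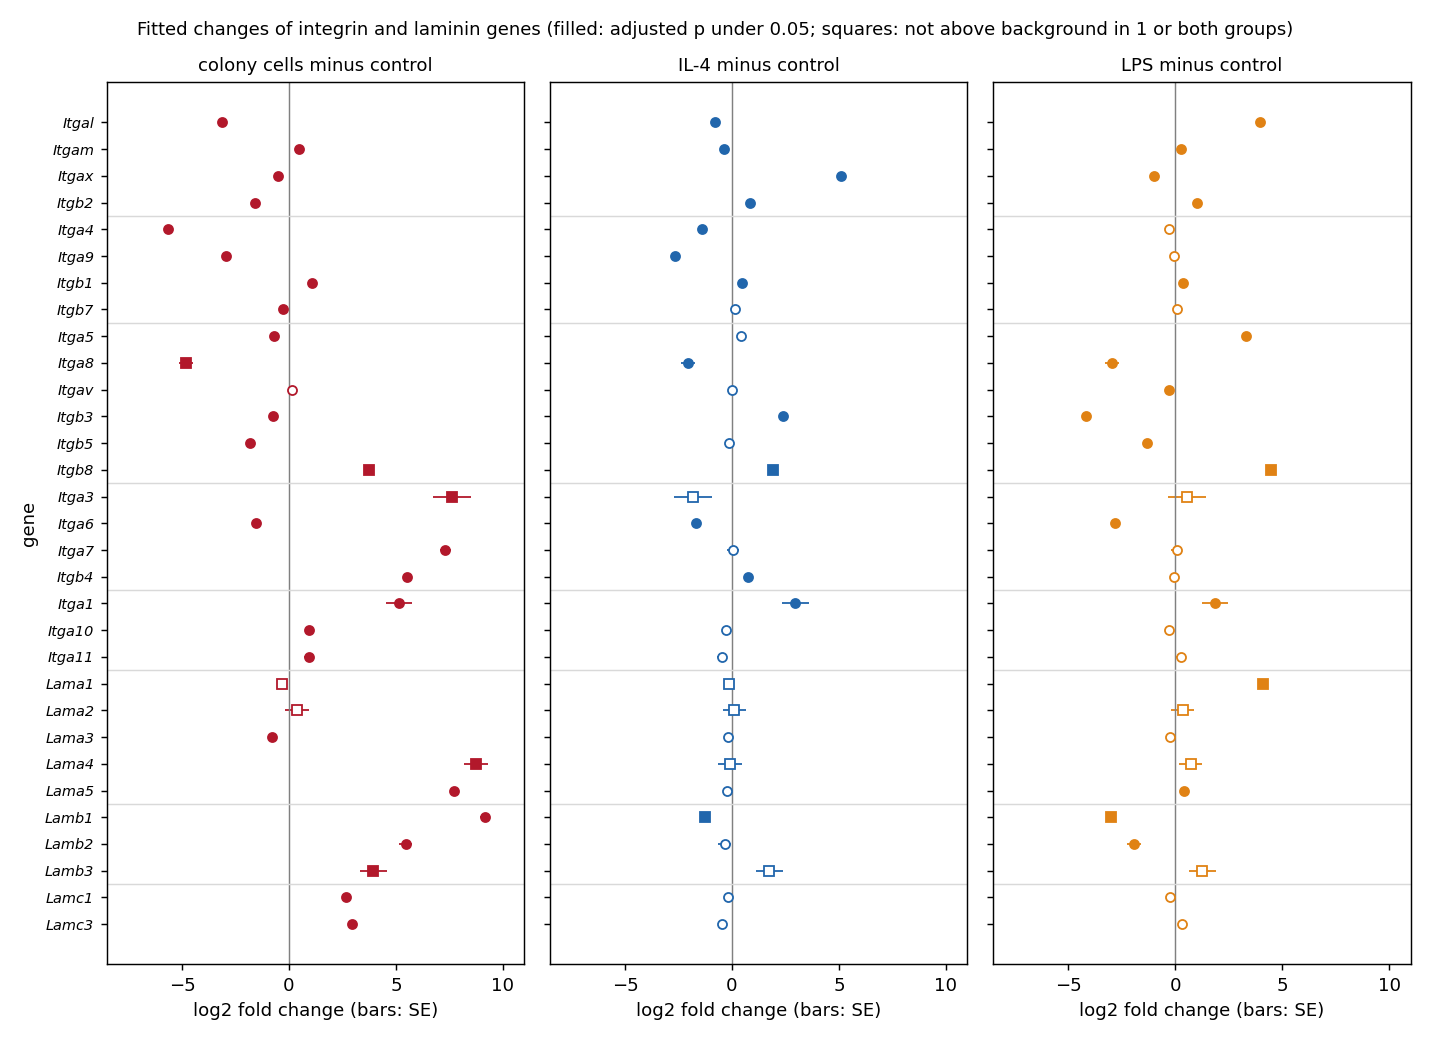
Fitted log2 change of each gene against control macrophages for colony cells, IL-4 macrophages and LPS macrophages, with bars of 1 standard error (2 arrays per group). Filled marks were called at an adjusted p under 0.05, and squares mark genes that were not well above background in 1 or both groups, for which the fitted change is not a measured fold. Lama5, Lamb1 and Lamb2 lie far to the right for colony cells, where Lama3 lies left of 0, and Lamb1 is the laminin chain called for IL-4 macrophages.

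Against control macrophages, LPS macrophages had higher levels of 9 and lower levels of 8 of the 32 genes, while 54.7% of all genes tested were called, 28.9% higher and 25.8% lower. The 17 of 32 genes called lie near that share. The median change was 0.13, beside 0.08 for all genes.

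Itgal and Itga5 had the largest measured rises. Itgal was at 4.95 and 4.87 in LPS macrophages and 0.85 and 1.04 in control macrophages, a change of 3.97 ± 0.12, or 15.6-fold, with an adjusted p of 6.44e-06. Another Itgal probe rose by 3.85 ± 0.10 and a dimmer one by 0.47 ± 0.13. Itga5 was at 3.17 and 2.83 in LPS macrophages and -0.49 and -0.17 in control macrophages, a rise of 3.33 ± 0.18, or 10.1-fold. Both genes stood above every array of the other 3 groups. Itgb2, the partner of Itgal, rose by 1.00 ± 0.07.

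Itgam rose by 0.30 ± 0.08 on its repeat-bearing probe, a call that was lost without any 1 of the LPS or control arrays, and by 2.05 ± 0.12 and 1.66 ± 0.11 on the others. Itgb8 was at -3.83 and -3.73 in LPS macrophages and dim in control macrophages, at least 4.71-fold higher. Lama1 was well above background only in LPS macrophages, at -4.24 and -3.61, at least 4.25-fold above control, and with the normexp correction this was not called. Lama5 rose by 0.43 ± 0.09, a call lost with median centring or the deposited values. Itgb1 changed by 0.36 ± 0.08 and lost its call without control replicate 1 or LPS replicate 2, and Itga1 changed by 1.86 ± 0.63 with an adjusted p of 0.0498. The Itga1 call was lost under 12 of 19 alternatives and turned in direction under 2 more, and its other probe changed by -0.08 ± 0.45 and was not called.

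Of the genes that fell, Itgb3 gave opposite answers by probe. Its brighter probe was at -3.17 and -3.20 in LPS macrophages and 1.00 and 0.99 in control macrophages, a fall of 4.18 ± 0.06, while the other was at -0.77 and 0.01 in LPS macrophages and -3.72 and -3.48 in control macrophages, a rise of 3.22 ± 0.28. Both probes were designed on the same RefSeq transcript and lie at chr11:104531672-104531731 and chr11:104528625-104528684 on the plus strand of mm9, the brighter one nearer the 3′ end of the transcript. The direction of Itgb3 with LPS was therefore not settled by these probes.

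Itga6 was likewise lower by 2.79 ± 0.08 on its brighter probe and higher by 1.47 ± 0.13 on the other. Itga8 fell by 2.94 ± 0.32, Itgb5 by 1.29 ± 0.07 and Itgax by 0.99 ± 0.09, each on a single probe. Itgav changed by -0.28 ± 0.08, with its other probe higher by 0.49 ± 0.08. Lamb2 fell by 1.92 ± 0.32 and Lamb1 at least 1.97-fold. Lama3 changed by -0.24 ± 0.09 on the brighter probe and was not called, while its other probe was at -8.28 and -7.97, not well above background, in LPS macrophages and at -1.75 and -1.65 in control macrophages.

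Beside these, Vcam1 was at -1.10 and -1.07 in LPS macrophages and -3.93 and -3.73 in control macrophages. Of 27 ligands and counter-receptors 8 rose and 7 fell, while 28.9% of all genes tested rose and 25.8% fell. Of 17 kinases 9 rose and 3 fell, with the Src family members Fgr and Src higher by 2.40 and 2.22. Of 34 activators and adaptors 11 rose and 9 fell, which, like the ligand counts, lies near those shares. Among them Vasp, an actin regulator, rose by 2.32. Col4a2 rose by 4.81, to 0.04 and -0.03 in LPS macrophages, against -5.09 and -4.52 in control macrophages, and 5 of 22 basement membrane partners rose while 5 fell. Of 20 leukocyte markers 12 rose and 3 fell, with summed signals of 2639 and 2982 in LPS macrophages and 1685 and 1660 in control macrophages. Of 14 macrophage markers 4 rose and 10 fell with LPS, with sums of 1878 and 2119 in LPS macrophages and 2557 and 2580 in control macrophages. The part of these shifts in the integrin changes was not tested.

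Colony cells were also set against the stimulated macrophages. These comparisons share the colony arrays with the one against control, so that they are not independent of it. Against IL-4 macrophages, 17 of the 32 genes were higher and 10 lower in colony cells, with 71.6% of all genes called, 24.3% higher and 47.3% lower. Against LPS macrophages, 19 were higher and 11 lower, with 76.5% of all genes called, 26.8% higher and 49.7% lower. The laminin chains Lama4, Lama5, Lamb1, Lamb2, Lamb3, Lamc1 and Lamc3 were called higher in each of these comparisons. The Lamb3 call against IL-4 macrophages, in which its probe was dim, was lost without any 1 of the IL-4 or colony arrays and with normexp. Lama5 exceeded IL-4 macrophages by 7.94 ± 0.09 and LPS macrophages by 7.29 ± 0.09, and Lamb2 by 5.80 ± 0.32 and 7.37 ± 0.32. Lama1 was lower in colony cells than in LPS macrophages, at least 5.26-fold.

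Colony cells were called in opposite directions against IL-4 and against LPS macrophages for Itgax and Itgb8. The same held for Itgb3 on its brighter probe only and for Itga6 on its dimmer probe only. Itgax was lower by 5.60 ± 0.09 in colony cells than in IL-4 macrophages and higher by 0.47 ± 0.09 than in LPS macrophages. Itgb3, on its brighter probe, was lower by 3.13 ± 0.06 than in IL-4 macrophages and higher by 3.45 ± 0.06 than in LPS macrophages. Its other probe was lower in both comparisons, by 2.32 ± 0.28 and 4.15 ± 0.28. Itgb8 was at least 2.93-fold higher than in IL-4 macrophages and lower by 0.75 ± 0.11 than in LPS macrophages. On its dimmer probe, Itga6 was higher by 0.85 ± 0.13 than in IL-4 macrophages and lower by 0.47 ± 0.13 than in LPS macrophages. Its brighter probe was higher by 1.26 than in LPS macrophages, though lower than in control macrophages, and was not called against IL-4 macrophages. Itgal and Itga4 were lower in both comparisons. Itgal changed by -2.34 ± 0.12 in colony cells against IL-4 macrophages and by -7.08 ± 0.12 against LPS macrophages. Itga4 changed by -4.29 ± 0.11 against IL-4 macrophages and by -5.37 ± 0.11 against LPS macrophages.

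LPS macrophages had higher levels than IL-4 macrophages of 10 and lower levels of 8 of the 32 genes. Of all genes tested 52.6% were called, 26.8% higher and 25.8% lower, and the member counts lie near those shares. The largest differences were in Itgb3, lower by 6.59 ± 0.06 with LPS on its brighter probe and higher by 1.83 ± 0.28 on the other, and in Itgax, lower by 6.06 ± 0.09, or 66.9-fold. Itgal was higher with LPS by 4.74 ± 0.12, Itga5 by 2.93 ± 0.18, Itga9 by 2.59 ± 0.13 and Itga4 by 1.08 ± 0.11. Itgb2 differed by 0.14 ± 0.07 and was not called, with levels of 6.09 and 6.07 in LPS macrophages and 5.93 and 5.94 in IL-4 macrophages.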

How the data were processed

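The deposited scanner files give intensity per spot, which per the file headers was made by Feature Extraction 10.7.3.1 on probes placed on mm9; its background-subtracted, detrended signal was used here. A log2 value table deposited by the authors served as an alternative. Each of its columns differs from the scanner's log2 signal by a constant (across probes, r of at least 0.99996), with column medians of 2.53 to 2.96. That constant lay between 4.72 (control replicate 2) and 5.65 (colony replicate 2). How the submitters derived it, and how the 34119 probes of the value table were chosen, stays unknown. The submitters' processing notes also name Partek 6.4 and RMA, with no role given. The arrays shared 1 slide and 1 scan.

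Uneven and outlying spots were left out (91 to 257 per array), log2 signals were set relative to the 75th percentile of each array, and repeat spots averaged. Probes well above background on both arrays of some group were kept, 39417 of 55681, and the probe with the highest mean stood for its gene, which gave 26508 genes, 39 of them with a missing value that the fit skipped. Probe names were updated from RefSeq tables. limma 3.58.1 in R 4.3.3 fitted 4 group means without an intensity trend, with 4 residual and 1.57 prior degrees of freedom, tested on simulated data. With 2 arrays a group, 0.333 is the smallest two-sided p that exact permutation allows, so calls rest on variances shared across genes, and the number of arrays limits the precision.

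The genes, role lists, partner lists and marker lists were chosen with earlier results of these data known. Genes of the 2 families are named, apart from results not reported here. From each other list, up to 4 called genes with the largest change were eligible. The marker Cdh5 and the ligand Vcam1 are named where a result turns on them. The platelet genes Pf4, Ppbp and Gp1bb were named outside this rule, after their values were seen. Deviations of same-numbered samples from group means correlated between -0.16 and 0.05, so no shift shared by replicate number stood out. With 2 arrays a group, these values cannot tell whether same-numbered samples share a mouse or batch. Alternatives covered background, scaling, filters, probe choice, moderation, a replicate block, left-out arrays and repeat-bearing probes.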

Additional observations from a re-analysis of the deposited data

How the results depend on the processing

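The counts of called genes stayed within 1.5 times of those reported under 19 alternatives in 5 of the 6 comparisons. The exception was IL-4 against control with 14 calls, which numbered 7 without IL-4 replicate 1 and 8 without IL-4 replicate 2, within a range of 7 to 18 over the left-out arrays. With the replicate number as a block the counts were 29, 28 and 29 for colony cells against control, IL-4 and LPS macrophages, 13 for IL-4 against control, 15 for LPS against control and 18 for LPS against IL-4. Of 135 called changes, 6 lost their call with the block, 12 with the deposited values, 11 with median centring and 17 with the normexp background, under which 47 log2 changes were over 1.5 times smaller. Averaging the probes of a gene turned Itgam to -0.21 (colony cells against control) and -1.54 (against LPS), Itgb3 to -0.35 and Lama3 to 2.72 (colony cells against LPS), Lama3 to 0.21 (colony cells against IL-4), Itga6 to 0.10 and Itgav to 0.20 (LPS against IL-4), and Itgav to 0.10 (LPS against control). Without repeat-bearing probes, chosen after seeing the data, Itgam was -0.47, -0.17 and -2.52 in colony cells against control, IL-4 and LPS macrophages. With normexp, Itga1 was -0.067 (LPS against control), Itga11 -0.080 and Lama2 -0.49 (colony cells against control), and Itgb8 -0.064 (IL-4 against control). Quantile normalization gave Itgam -0.018 (LPS against control) and Itgb5 0.17 (colony cells against LPS). With genes well above background on all 8 arrays Itga1 was -0.078 (LPS against control). Over the left-out LPS arrays Itga3 ranged between -0.92 and 2.04 (LPS against control) and Lamb3 between -1.49 and 0.57 (LPS against IL-4). The cause of these turns was not tested beyond the probe chosen. Over all genes, calls in IL-4 against control numbered 5049, but 2667 with median centring, 2566 with the deposited values, 2169 without IL-4 replicate 1 and 2004 without IL-4 replicate 2. The share of calls that were higher with LPS than in control was 52.9%, but 39.9% with median centring, 38.5% with the deposited values and 42.5% with normexp, and against IL-4 51.0%, 36.2%, 33.9% and 46.4%.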

Other observations

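Genes with names close to those of integrin subunits were kept apart. Itga2b, the α subunit of the platelet fibrinogen receptor, was at -1.99 and -2.32 in colony cells, -5.52 and -5.54 in IL-4 macrophages, -4.30 and -2.89 in LPS macrophages, and -5.05 and -5.14 in control macrophages. It rose by 2.94 ± 0.44 in colony cells against control, and Pf4 and Ppbp, platelet chemokines on the same marker list, rose by 0.62 and 1.19, while Gp1bb, a platelet glycoprotein subunit gene on that list, fell by 0.63. These 3 were chosen after their values were seen. Of the 11 platelet and megakaryocyte markers tested, 6 rose and 4 fell in that comparison, beside 24.7% higher and 46.7% lower among all genes tested. Their summed signals were 98.8 and 100.1 in colony cells and 85.3 and 79.0 in control macrophages. Itgb3, the partner of Itga2b in platelets, fell by 0.73 ± 0.06 in the same comparison.

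Itgb2l, a gene related to Itgb2, fell by 1.53 ± 0.17 with LPS against control, where Itgb2 rose by 1.00 ± 0.07. Itgb3bp, which encodes a centromere protein also described as an Itgb3-binding protein, fell by 2.32 ± 0.09 with LPS. Itgb1bp1, which encodes an Itgb1-binding adaptor, rose by 0.59 ± 0.09 with LPS. Of the integrin-associated tetraspanins and partners, Tspan8 was at least 525-fold and Cav1, which encodes a caveolin, at least 75.1-fold higher in colony cells than in control macrophages, and of 13 tested 7 rose and 5 fell. With LPS against control 5 of the 13 rose and 6 fell, among them the tetraspanin Cd9, which fell by 2.23. Of all genes tested, 24.7% rose and 46.7% fell in colony cells against control. With LPS 28.9% rose and 25.8% fell.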
